A study of Mus musculus with 24 samples.

Results

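Among the mature miRNAs counted in mouse liver are the passenger strands of the let-7 family, here 9 rows for the 3p arms of let-7 precursors: mmu-let-7a-1-3p, mmu-let-7b-3p, mmu-let-7c-1-3p, mmu-let-7c-2-3p, mmu-let-7d-3p, mmu-let-7e-3p, mmu-let-7f-1-3p, mmu-let-7f-2-3p and mmu-let-7i-3p (mmu marks mouse and is left off below). They were chosen by family and arm, with their difference between AM132 and AM608 livers already known, so that difference is a description and carries no test. They are 9 of 1908 rows, 584 of which held no count in any library. All 9 passed the low-count filter that left 421 miRNAs for testing.

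The 24 libraries fall into 3 groups of 8, all from C57Bl/6J mice. AM132 livers are from mice that became obese over 11 weeks of high fat feeding and were injected into a vein, at 3.3 mg/kg on each of 3 days in a row, with a locked nucleic acid (LNA) oligonucleotide of 16 bases complementary to mature miR-132. AM608 livers are from mice on the same diet and schedule that received an LNA oligonucleotide of 15 bases complementary to miR-608, a primate miRNA used as the control target. RCD livers are from lean, age-matched mice on regular chow, for which no injection is described. Injected mice were killed 7 days after treatment. No obese mouse without an injection is among the groups, so a difference between AM132 and AM608 can come from either oligonucleotide, and between AM608 and RCD diet and injection differ together. The sample numbers in the labels are not linked to animals, so the p-values reflect only how these samples spread, part of which may be technical.

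A miRNA precursor is a hairpin that the enzyme Dicer cuts into a duplex. One strand, the guide, is loaded into an Argonaute protein and pairs with target mRNAs through its seed, bases 2 to 8 from the 5′ end. The other strand, the passenger, is mostly degraded and is counted at low levels. In the let-7 family, best known for holding back cell growth and development and abundant in adult liver, the 5p arm is the guide and the 3p arm the passenger. Names with a number, such as let-7a-1, give the precursor where several precursors make the same guide.

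The mature sequences are printed from RefSeq (GRCm38.p6), with the seed in capitals, to show how alike the 9 strands are. They hold 8 distinct sequences, since let-7c-2-3p is identical to let-7a-1-3p.
let-7a-1-3p (same in let-7c-2-3p): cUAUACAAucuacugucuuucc
let-7b-3p: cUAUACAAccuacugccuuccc
let-7f-1-3p: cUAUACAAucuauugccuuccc
let-7f-2-3p: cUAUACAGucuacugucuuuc
let-7d-3p: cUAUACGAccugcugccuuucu
let-7e-3p: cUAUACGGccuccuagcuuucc
let-7c-1-3p: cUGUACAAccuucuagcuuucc
let-7i-3p: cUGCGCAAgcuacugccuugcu
The seed UAUACAA is shared by let-7a-1-3p, let-7c-2-3p, let-7b-3p and let-7f-1-3p, and each of the other 5 strands has a seed of its own. Counted from 1 at the 5′ end of let-7a-1-3p, let-7f-2-3p differs from it by A8G alone over 21 bases and is 1 base shorter. The changes in let-7b-3p are U9C, U16C and U20C, and those in let-7f-1-3p are C13U, U16C and U20C. Farthest is let-7i-3p with A3G, U4C, A5G, U9G, U16C, U20G and C22U.

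The precursors that share the strand of let-7a-1-3p lie on different chromosomes and differ elsewhere, their guide arms included. They are shown with both arms in capitals, the guide on the left and the passenger on the right.
Mirlet7a-1: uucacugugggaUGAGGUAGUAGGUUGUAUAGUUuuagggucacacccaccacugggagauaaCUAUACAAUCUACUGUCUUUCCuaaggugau
Mirlet7c-2: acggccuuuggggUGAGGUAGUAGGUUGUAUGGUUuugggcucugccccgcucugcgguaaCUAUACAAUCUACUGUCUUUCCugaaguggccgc
Their 3p arms cannot be told apart by sequence. In the deposited table the counts of both rows were equal in 18 of 24 libraries and differed by at most 2 elsewhere, so their values are given once below. Counts out of 9 rows include both and so hold 1 measurement under both names.

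In GRCm38, Mirlet7a-1 (chr13:48538179-48538272), Mirlet7f-1 (chr13:48537829-48537917) and Mirlet7d (chr13:48536012-48536114) lie in a row on the minus strand, within exons of the long noncoding RNA 6720427I07Rik. Mirlet7c-2 (chr15:85706603-85706697) and Mirlet7b (chr15:85707319-85707403) lie 621 bases apart on the plus strand, within exons of the noncoding transcript Lncppara. Mirlet7f-2 (chrX:151912346-151912428, plus strand) lies in an intron of the ubiquitin ligase gene Huwe1, 785 bases before Mir98, whose products belong to the same family. Mirlet7c-1 (chr16:77599657-77599750, plus strand) lies in an intron of Mir99ahg. Mirlet7e (chr17:17830352-17830444, plus strand) lies within Spaca6 and outside its exons, and Mirlet7i (chr10:122985640-122985724, minus strand) lies in an exon of D630033A02Rik. The build is that of the annotation used here; none is stated for the counts.

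Library totals of mature miRNA counts lay between 5926983 and 8734721 for AM132, between 6855571 and 8532049 for AM608, and between 5689143 and 8380591 for RCD. Levels are counts scaled to a common library size (CPM, with TMM factors), so that libraries of different depth can be set side by side. miR-132-3p, against which the AM132 oligonucleotide was directed, had no count in any of the 8 AM132 libraries and stood at 23.3 ± 7.01 CPM in AM608 and 20.7 ± 12.7 CPM in RCD (SD, n = 8 each). Beside these groups, the summed CPM of 6 hepatocyte miRNAs ran from 496538 to 636961 in AM132 libraries, from 324901 to 501179 in AM608 libraries and from 265128 to 544846 in RCD libraries. RCD library 3 stood apart with the highest sums for neuronal, leukocyte, erythroid, muscle and mesenchymal miRNAs, among them a neuronal sum of 2837 CPM against an RCD median of 480.2 CPM. It also had the lowest hepatocyte and biliary sums of all libraries (265128 and 425 CPM). Of those lists, the leukocyte miRNAs miR-142-3p and miR-142-5p are listed at 0 in all libraries. The part of these marker levels in the results that follow was not tested.

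Of the 9 passenger strands, 7 were lower in AM132 than in AM608 livers, by margins that ran from 1.63-fold to 14.8-fold, and let-7i-3p and let-7c-1-3p were not lower. The edgeR fit across all miRNAs called 7 of the 9 lower and 0 higher at an adjusted p under 0.05, where 8.31% of all tested miRNAs were called lower and 4.04% higher. The median log2 fold change over the 9 was −1.89, or −1.34 with the identical pair taken as 1, against 0.05 over all 421. As the strands were grouped for this difference, these figures describe it and do not test it. In bulk tissue, fewer cells of a type and less RNA per cell cannot be told apart.

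**Figure D1:**
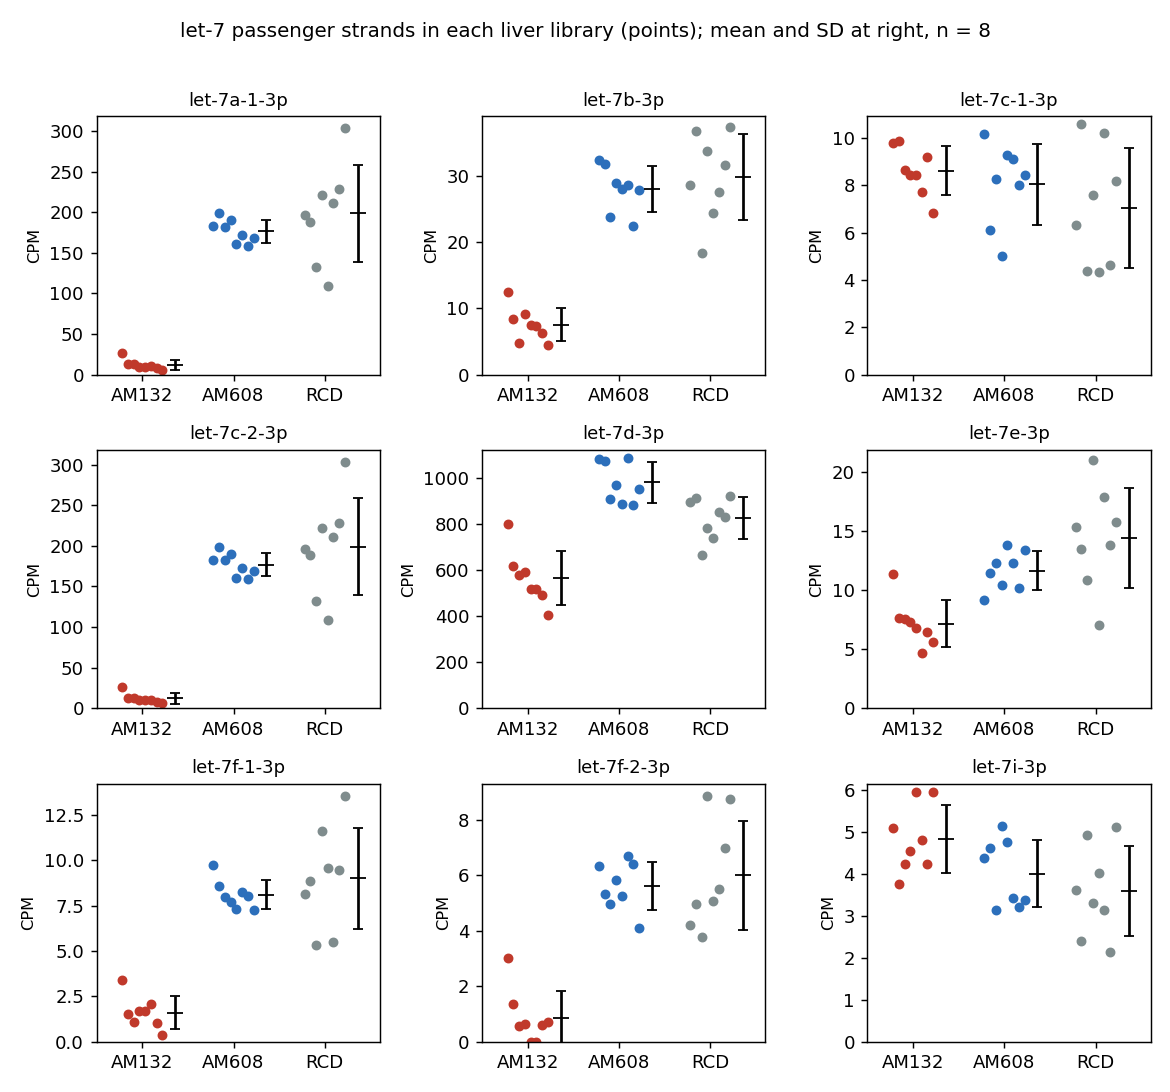
CPM of each of the 9 let-7 passenger strands (vertical axes start at 0 and differ between panels) in every AM132, AM608 and RCD library, with points spread sideways only for visibility and the mean with its SD at the right of each group (n = 8; the lower SD bar of let-7f-2-3p in AM132 is cut at 0). For let-7a-1-3p the AM132 points sit between 5.76 and 26.6 CPM, under all AM608 and RCD points, whereas for let-7i-3p and let-7c-1-3p the groups overlap.

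The strand shared by let-7a-1 and let-7c-2 had the largest difference of the 9. The AM132 libraries held 5.76 CPM at the lowest, 10.1 at the median and 26.6 at the highest, against 159, 177 and 199 CPM in AM608 and 109, 204 and 303 CPM in RCD. Every AM132 library lay below every AM608 and every RCD library, while AM608 and RCD overlapped. The log2 fold change in AM132 over AM608 was −3.89 (SE 0.247, 95% interval −4.40 to −3.38), 14.8-fold lower. In counts, AM132 libraries held 32 to 141 reads of it and AM608 libraries 1298 to 1600.

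Mirlet7f-1 and Mirlet7d are the neighbours of Mirlet7a-1 on chromosome 13. let-7f-1-3p, which carries the same seed, stood at 0.360, 1.60 and 3.39 CPM in AM132 (lowest, median, highest), at 7.28, 7.99 and 9.73 CPM in AM608 and at 5.33, 9.15 and 13.6 CPM in RCD. Its AM132 libraries all lay below both other groups, with a log2 fold change over AM608 of −2.33 (SE 0.262, 95% interval −2.87 to −1.79), 5.02-fold lower. These are few reads, 2 to 18 per AM132 library and 54 to 75 per AM608 library. let-7d-3p was the most abundant of the 9 strands in every group, at 404, 547 and 799 CPM in AM132, 881, 960.4 and 1086 CPM in AM608 and 662, 841 and 922 CPM in RCD. Its AM132 libraries lay below all AM608 libraries but overlapped those of RCD. The log2 fold change over AM608 was −0.80 (SE 0.103, 95% interval −1.01 to −0.58), 1.74-fold lower. The intervals of let-7f-1-3p and let-7d-3p do not overlap, which is a description, since no contrast between strands was fitted. The reads of let-7a-1-3p cannot be assigned to chromosome 13 alone, since let-7c-2 on chromosome 15 makes the same strand.

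On chromosome 15, let-7b-3p, the neighbour of let-7c-2, stood at 4.50, 7.43 and 12.4 CPM in AM132 (lowest, median, highest), at 22.4, 28.3 and 32.4 CPM in AM608 and at 18.4, 30.1 and 37.3 CPM in RCD. The AM132 libraries lay below all others, with a log2 fold change over AM608 of −1.89 (SE 0.178, 95% interval −2.26 to −1.52), 3.71-fold lower.

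let-7f-2-3p, from the X chromosome, was the least abundant of the 9 in AM132, with no count in 2 libraries, a median of 0.617 CPM and a highest value of 3.02 CPM. A count of 0 in those 2 libraries allows up to 3 reads each, 0.415 and 0.481 CPM. AM608 libraries held 4.11, 5.60 and 6.72 CPM (lowest, median, highest) and RCD libraries 3.76, 5.28 and 8.87 CPM. No AM132 library reached the lowest AM608 or RCD library, and the log2 fold change over AM608 was −2.74 (SE 0.434, 95% interval −3.63 to −1.85), 6.68-fold lower. The interval is the widest of the 9, on 40 reads summed over the AM132 group and 370 over AM608. Its counts were 0 to 12.5% of those of let-7a-1-3p in AM132 libraries, 2.44 to 4.03% in AM608 and 2.14 to 4.66% in RCD. For let-7f-1-3p that share was 4.05 to 5.32% in AM608. Since let-7f-2-3p differs from let-7a-1-3p by A8G alone, its row may hold reads of that strand, which was not tested.

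let-7e-3p was lower by a smaller margin and its groups overlapped. It stood at 4.65, 7.02 and 11.3 CPM in AM132, 9.16, 11.9 and 13.8 CPM in AM608 and 7.01, 14.6 and 21.03 CPM in RCD (lowest, median, highest). AM132 library 1, at 11.3 CPM, was the library that reached into the AM608 range. The log2 fold change was −0.70 (SE 0.184, 95% interval −1.08 to −0.32), 1.63-fold lower.

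let-7i-3p and let-7c-1-3p overlapped between all groups. let-7c-1-3p stood at 6.84, 8.55 and 9.88 CPM in AM132, 4.99, 8.34 and 10.1 CPM in AM608 and 4.32, 6.94 and 10.6 CPM in RCD (lowest, median, highest). Its log2 fold change in AM132 over AM608 was 0.10 (95% interval −0.29 to 0.48), and −0.16 when libraries were scaled by their totals. let-7i-3p stood at 3.75, 4.67 and 5.95 CPM in AM132, 3.14, 3.90 and 5.14 CPM in AM608 and 2.13, 3.45 and 5.10 CPM in RCD, with a log2 fold change of 0.27 (95% interval −0.09 to 0.63). Non-overlap below AM608 held for 6 of the 9 rows, where 4.99% of all tested miRNAs had AM132 libraries wholly below AM608.

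Other 3p arms of the family were counted too. miR-98-3p, made 785 bases from let-7f-2 and with the seed UAUACAA, stood at 3.39, 5.23 and 6.81 CPM in AM132 and at 4.23, 5.25 and 6.21 CPM in AM608 (lowest, median, highest). Those ranges overlap, and its log2 fold change was 0.03 (SE 0.173, 95% interval −0.32 to 0.39, edgeR adjusted p = 0.913). let-7a-2-3p and let-7g-3p did not pass the filter, with sums over 8 libraries of 12 and 31 reads in AM132, 11 and 35 in AM608 and 13 and 48 in RCD. Of family rows with no arm in their name, let-7j had a log2 fold change of 0.06 and let-7k one of −0.16 (edgeR adjusted p = 0.9 and 0.783).

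The guide strands of the same precursors were set beside the passengers. Of 9 guides (let-7a-5p, let-7b-5p, let-7c-5p, let-7d-5p, let-7e-5p, let-7f-5p, let-7g-5p, let-7i-5p and miR-98-5p), 1 fell in AM132 against AM608 and 0 rose by the edgeR test adjusted over all 421 miRNAs. Among all tested miRNAs, 8.31% fell and 4.04% rose by that test. For the guides, DESeq2 called 1, and 2 had an unadjusted edgeR p under 0.05. Their log2 fold changes lay between −0.25 and 0.26 with a median of 0.06, close to the 0.05 over all miRNAs. let-7a-5p averaged 18855 ± 1777 CPM in AM132 and 16901 ± 1250 CPM in AM608 (SD, n = 8 each), a log2 fold change of 0.16 (95% interval −0.05 to 0.37, edgeR adjusted p = 0.396), while its passenger let-7a-1-3p was 14.8-fold lower. let-7d-5p averaged 9965 ± 1182 CPM in AM132 and 9849 ± 722 CPM in AM608, a log2 fold change of 0.02 (95% interval −0.22 to 0.25, edgeR adjusted p = 0.931). The guide that fell was let-7c-5p, at 11517 ± 958 CPM in AM132 and 13657 ± 763 CPM in AM608 (log2 fold change −0.25, SE 0.0805, edgeR adjusted p = 0.0448). It did not pass when AM132 library 3, 4, 5, 6, 7 or 8 or AM608 library 1 or 5 was left out (highest edgeR adjusted p = 0.101), nor without the low-count filter (edgeR adjusted p = 0.181).

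**Figure D2:**
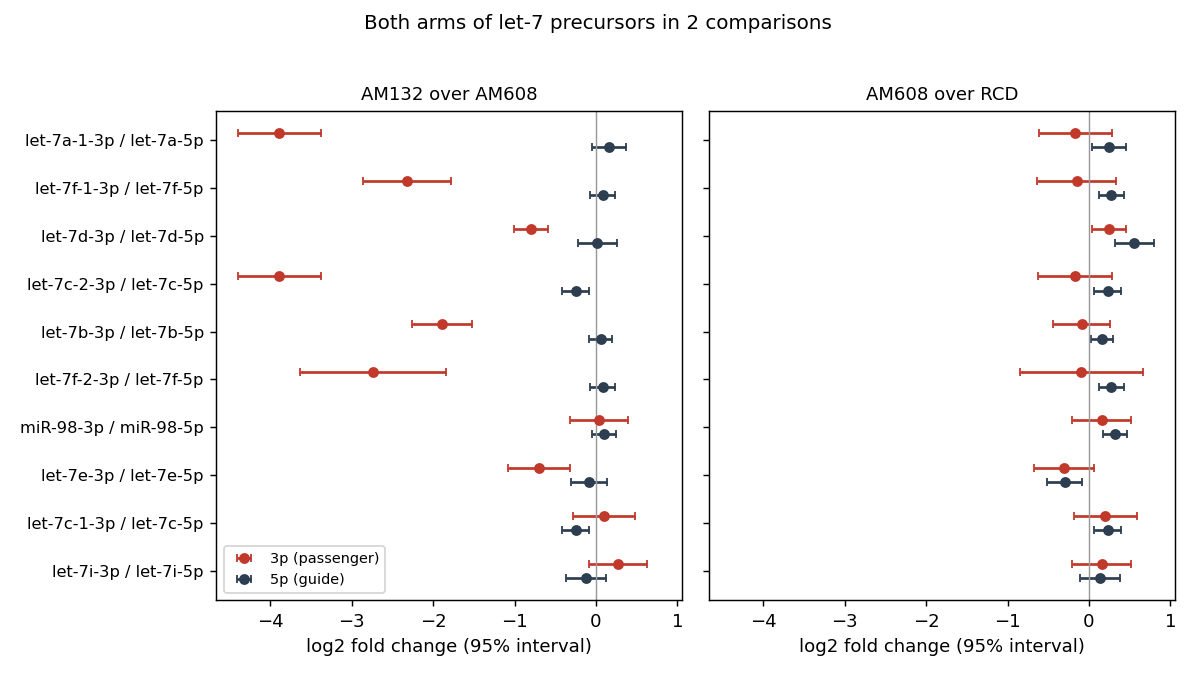
Log2 fold changes with 95% intervals of the 3p (passenger) and 5p (guide) arms of the precursors of the 9 passenger strands and of Mir98. AM132 over AM608 is on the left and AM608 over RCD on the right, with 0 marked by a vertical line. The arms of let-7a-2 and let-7g are not drawn as precursors of their own. On the left, 3p arms reach −3.89 while the guides drawn lie between −0.25 and 0.16. On the right, all 9 passengers lie between −0.31 and 0.25. let-7c-5p and let-7f-5p are drawn beside each of their precursors.

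As a share of both arms of a precursor, the passenger strand was smaller in AM132 livers for the same 7 rows. let-7a-1-3p made up 0.0632 ± 0.0332% of the reads of let-7a-1-3p and let-7a-5p together in AM132, 1.04 ± 0.0704% in AM608 and 1.36 ± 0.27% in RCD (SD, n = 8 each). let-7d-3p made up 5.39 ± 1.13% in AM132, 9.05 ± 0.542% in AM608 and 11.3 ± 2.21% in RCD. The AM132 range for let-7d, 4.11 to 7.79%, lay below the AM608 range, 8.28 to 10.1%. let-7i-3p stayed within the spread of the groups at 0.0635 ± 0.0109% in AM132, 0.0489 ± 0.0123% in AM608 and 0.051 ± 0.0262% in RCD. The guides let-7a-5p, let-7c-5p and let-7f-5p are each made by several precursors, so the reads set against their passengers come from more than 1 hairpin.

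The cluster mates of let-7 precursors outside the family are miR-99, miR-100 and miR-125 arms. Of 11 such arms, 9 were tested, 1 rose and 1 fell in AM132 against AM608, where 4.04% of all tested miRNAs rose and 8.31% fell, with a median log2 fold change of −0.08. miR-125b-2-3p, the passenger made near let-7c-1, fell to 20.5 ± 3.23 CPM in AM132, against 30.7 ± 2.34 CPM in AM608 (SD, n = 8 each; log2 fold change −0.58, SE 0.0933, edgeR adjusted p = 4.57e-05). miR-99a-5p, a guide of the same cluster, rose in AM132 (log2 fold change 0.36, edgeR adjusted p = 0.0142), and it did not pass without AM608 library 7 or without AM608 library 8 (highest edgeR adjusted p = 0.0872), or with library totals as the scaling (0.512). let-7c-1-3p itself, between them, had a log2 fold change of 0.10.

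Between AM608 and RCD livers, none of the 9 passenger strands was called (edgeR, adjusted over all miRNAs), against 28.7% of the 421 tested miRNAs. DESeq2 called 0 as well, and 1 of the 9, let-7d-3p, had an unadjusted edgeR p under 0.05. AM608 and RCD ranges overlapped for all 9, where 9.26% of all tested miRNAs had ranges that did not overlap. The AM608 libraries also entered the comparison through which the strands were grouped. Log2 fold changes in AM608 over RCD ran from −0.31 for let-7e-3p to 0.25 for let-7d-3p, with a median of −0.10 against −0.03 over all miRNAs. For let-7a-1-3p it was −0.17 (SE 0.218, 95% interval −0.62 to 0.28, edgeR adjusted p = 0.595), so the interval leaves room for differences of that size in either direction. Without RCD library 3, none of the 9 was called and their median was −0.18. For let-7d-3p the log2 fold change was 0.25 (SE 0.102, 95% interval 0.04 to 0.46, edgeR adjusted p = 0.069). let-7d-3p passed the threshold when AM132 library 1, AM132 library 8, AM608 library 7, RCD library 2 or RCD library 8 was left out (lowest edgeR adjusted p = 0.0283) and with library totals (0.0467), and over all alternatives its adjusted p ran from 0.0283 to 0.245. In the same comparison the guides let-7c-5p, let-7d-5p, let-7f-5p and miR-98-5p rose in AM608 and let-7e-5p fell, where 13.5% of all tested miRNAs rose and 15.2% fell (edgeR adjusted p = 0.0343, 5.83e-04, 0.0058, 0.00123 and 0.035). Of these guide calls, that of let-7c-5p was lost without RCD library 3 or AM608 library 1 (highest edgeR adjusted p = 0.0653), and that of let-7e-5p was lost in 10 of 24 fits with 1 library left out (AM132 2, AM608 1, 2, 3 or 4, RCD 1, 2, 4, 6 or 7; highest 0.106). The guide let-7d-5p rose by a log2 fold change of 0.56, next to 0.25 for its passenger.

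The spread of the strands within a group also differed. For let-7a-1-3p the coefficient of variation was 52.9% in AM132, 8.02% in AM608 and 30.1% in RCD. For let-7f-1-3p it was 55.6%, 9.71% and 31.1% in AM132, AM608 and RCD. The AM608 group was the tightest of the 3 for let-7a-1-3p, let-7b-3p, let-7d-3p, let-7e-3p and both let-7f passengers. AM608 was also the tightest for miR-98-3p and the guides let-7a-5p, let-7c-5p, let-7d-5p, let-7g-5p and miR-98-5p. It was not for let-7b-5p, let-7e-5p, let-7f-5p and let-7i-5p. The share over all miRNAs was not counted. In AM132, let-7a-1-3p and let-7f-1-3p rest on 32 to 141 and 2 to 18 reads per library, and library 1 was the highest for both.

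AM132 against RCD shares the AM132 libraries with the comparison that chose the strands, so its values are set beside it without a test. Of the 9 strands, 7 were called lower by edgeR and 0 higher, where 18.8% of all tested miRNAs were called lower and 15.4% higher. Log2 fold changes in AM132 over RCD were −4.06 for let-7a-1-3p, −1.98 for let-7b-3p, −0.55 for let-7d-3p, −1.01 for let-7e-3p, −2.48 for let-7f-1-3p and −2.84 for let-7f-2-3p. let-7c-1-3p had 0.30 and let-7i-3p 0.43 (95% interval 0.06 to 0.79). Of the fits tried, only that without RCD library 8 called let-7i-3p higher, at 0.49, and this call too is a description. AM132 libraries lay wholly below RCD for 5 of the 9 rows, against 5.7% of all tested miRNAs, and let-7d-3p and let-7e-3p overlapped.

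Because the AM132 oligonucleotide is complementary to miR-132, the strands were lined up with mature miR-132-3p. A base that a strand has in common with miR-132-3p, in the same order, is one that would also pair with an oligonucleotide covering that stretch. Which 16 bases the oligonucleotide covers is not given in the sources used here. The longest run of bases shared with miR-132-3p is in capitals.
miR-132-3p: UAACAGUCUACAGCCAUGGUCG
let-7f-2-3p: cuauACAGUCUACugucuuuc
let-7a-1-3p (same in let-7c-2-3p): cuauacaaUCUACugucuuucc
let-7i-3p: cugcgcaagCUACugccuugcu
let-7f-2-3p shares a run of 9 bases and let-7a-1-3p one of 5. Runs of 4 are shared by let-7b-3p, let-7f-1-3p, let-7c-1-3p, let-7i-3p and miR-98-3p, and runs of 3 by let-7d-3p and let-7e-3p. The family arms that did not pass the filter, let-7a-2-3p and let-7g-3p, share runs of 7 and 5. Summed over libraries, they held 12 and 31 reads in AM132 and 11 and 35 in AM608. Over the whole strand, the most identical bases without a gap were 12 for let-7f-2-3p and let-7i-3p and 11 for let-7a-1-3p, let-7b-3p and let-7f-1-3p. They were 10 for let-7d-3p and 8 for let-7c-1-3p and let-7e-3p. For let-7g-3p they were 12, and for let-7a-2-3p and miR-98-3p 9. Among 355 other tested miRNAs with a sequence, 1 of 4 with 12 identical bases fell in AM132 against AM608. With 11 it was 0 of 14, with 10 it was 5 of 45 (11.1%) and with 9 it was 5 of 84 (5.95%). With 8 it was 5 of 139 (3.60%), with 7 it was 6 of 63 (9.52%) and with 6 it was 0 of 6.

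A count over the 9 bases of the let-7f-2-3p run alone, ACAGUCUAC, was chosen after the values were seen and is a description. It is shown here with the bases that match in capitals, and the 9 bases compared start at base 5 of each strand.
let-7f-2-3p: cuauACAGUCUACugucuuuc
let-7a-1-3p (same in let-7c-2-3p): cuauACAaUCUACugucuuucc
let-7f-1-3p: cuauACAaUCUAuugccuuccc
let-7b-3p: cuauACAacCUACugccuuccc
miR-98-3p: cuauACAacuUACuacuuuccu
let-7c-1-3p: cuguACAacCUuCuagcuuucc
let-7i-3p: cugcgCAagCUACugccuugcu
let-7e-3p: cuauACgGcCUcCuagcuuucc
let-7d-3p: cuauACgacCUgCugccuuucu
The match was 9 of 9 bases in let-7f-2-3p (log2 fold change −2.74), 8 in let-7a-1-3p or, equally, let-7c-2-3p (−3.89), and 7 in let-7f-1-3p and let-7b-3p (−2.33 and −1.89). It was 6 in miR-98-3p, let-7c-1-3p, let-7i-3p and let-7e-3p (0.03, 0.10, 0.27 and −0.70) and 5 in let-7d-3p (−0.80). The family arms let-7a-2-3p and let-7g-3p did not pass the filter and are not in this count. Among 355 other tested miRNAs with a sequence, the start of the 9 bases compared was not held at base 5. It was base 10 in miR-28a-5p, base 4 in miR-139-5p and base 1 in miR-455-3p. Of these 355, 2 matched 8 bases and 1 of them fell, miR-28a-5p. Another 12 matched 7 and 2 of them fell (16.7%), miR-139-5p and miR-455-3p. The remaining 341 matched 3 to 6 bases and 19 of them fell (5.57%). A match is a description, not a site or a cause, and its part in the lower counts was not tested.

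**Figure D3:**
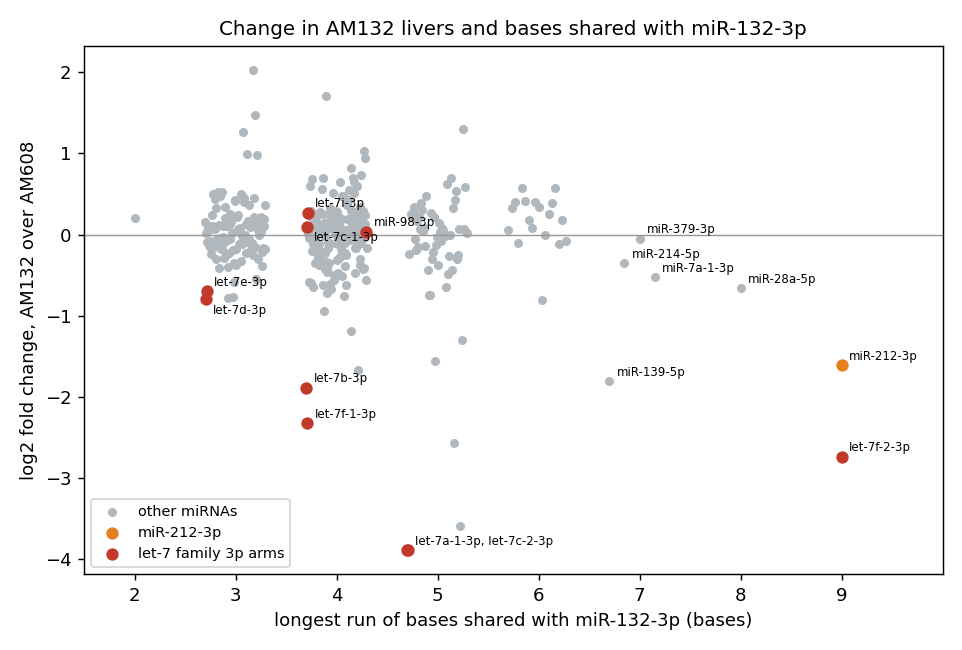
Log2 fold change in AM132 over AM608 of tested miRNAs with a RefSeq sequence (vertical axis) by the longest run of bases shared with mature miR-132-3p (horizontal axis, whole bases, points spread sideways for visibility), with let-7 family 3p arms in red and miR-212-3p in orange. miR-132-3p itself is left out. let-7f-2-3p and miR-212-3p stand at 9 bases with −2.74 and −1.61, and let-7a-1-3p at 5 bases with −3.89. At 4 bases, let-7f-1-3p and let-7b-3p stand at −2.33 and −1.89, and let-7i-3p, let-7c-1-3p and miR-98-3p near 0. At 3 bases, let-7d-3p and let-7e-3p stand at −0.80 and −0.70. The value of miR-212-3p (SE 0.521) rests on 24 reads summed over AM132 and 102 over AM608, and its ranges overlap.

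Outside the let-7 3p arms, miR-132-3p and miR-212-3p, 5 tested miRNAs share a run of 7 or more bases with miR-132-3p, and 2 of them fell. Those 2 are shown with the run in capitals.
miR-139-5p: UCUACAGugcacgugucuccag
miR-28a-5p: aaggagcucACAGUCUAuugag
miR-139-5p, a guide strand, stood at 177, 206 and 442 CPM in AM132 and 751, 817 and 1004 CPM in AM608 (lowest, median, highest). It fell by 1.81 on the log2 scale with no overlap (SE 0.152, edgeR adjusted p = 1.65e-09). miR-28a-5p stood at 154, 189 and 249 CPM in AM132 and 268, 305 and 347 CPM in AM608 (log2 fold change −0.66, SE 0.0973, edgeR adjusted p = 1.46e-05). miR-7a-1-3p, miR-214-5p and miR-379-3p did not pass (−0.53, −0.35 and −0.05; edgeR adjusted p = 0.153, 0.165 and 0.935). With shorter runs, 1 of 114 other miRNAs with a run of 2 or 3 bases fell (0.877%; miR-676-3p, named after its value was seen), 11 of 163 with a run of 4 (6.75%), 7 of 55 with a run of 5 (12.7%) and 1 of 18 with a run of 6 (5.56%; miR-30e-3p).

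The miRNAs most like the 9 strands were found by the Pearson correlation, over the 24 libraries, of log2 CPM with the mean standardised profile of the strands. They were miR-455-3p (0.942), miR-30e-3p (0.928), miR-139-5p (0.907), miR-28a-5p (0.906) and miR-1191 (0.903), and the correlation is a description, since group means shape it and all 24 libraries share it. Mean levels of miR-455-3p were 83.7 CPM in AM132, 494.9 CPM in AM608 and 712 CPM in RCD, and those of miR-30e-3p were 398 CPM in AM132, 694 CPM in AM608 and 710.0 CPM in RCD. Among the strands themselves the correlation with their own mean was 0.864 to 0.959 for the 7 that were lower in AM132, and −0.393 and 0.000888 for let-7i-3p and let-7c-1-3p.

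Within the AM132 group, library 1 was the highest of 8 for 7 of the 9 strands, the 7 that were lower. It was the highest for 18.8% of all tested miRNAs. Without it the log2 fold change in AM132 over AM608 was −4.16 for let-7a-1-3p, −3.34 for let-7f-2-3p and −0.83 for let-7e-3p. AM132 library 8 was the lowest of 8 for 6 of the 9, against 16.2% of all tested miRNAs. Of the AM132 group, library 8 had the highest hepatocyte sum (636961 CPM) and erythroid sum (1519 CPM). Library 1 had the highest mesenchymal sum (14485 CPM) and the lowest erythroid sum (269 CPM) and muscle sum (9.24 CPM). The part of these sums in the values of either library was not tested.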

How the data were processed

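Small RNA was sequenced from 24 mouse livers. The libraries used 300 ng of miRNeasy RNA (RIN over 8.4), the NEBNext small RNA kit and an Illumina NextSeq instrument, per the labels' protocols. The authors deposited raw, unnormalized read counts for each mature miRNA. FastQC appears in the submitters' processing notes. Aligner, trimming and genome build: not given in the sources used here. The rule for reads that match several miRNAs is not stated either, and it decides where reads of near-identical strands are counted. tRNA fragments and hypothalamus samples were not analysed here.

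The test was that of edgeR 4.0.16 under R 4.3.3 (robust quasi-likelihood fit, TMM factors, filterByExpr, group as the only term, all 24 libraries). P-values were adjusted by Benjamini-Hochberg across the 421 miRNAs tested, with 0.05 as the threshold. CPM was scaled to the TMM-adjusted sum of tested counts. An SE is the log2 fold change divided by the square root of the F statistic, without its sign, and intervals are 95% intervals from the fit. The fit was tested on simulated counts. DESeq2 1.42.0, other scalings, filters, sample sets and a replicate block were alternatives. Libraries of the same group all differed by more than sampling noise (84 pairs compared, chi-square over its degrees of freedom at least 30.2). The intervals include the spread between libraries, and the 3-count floor covers counting error only.

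Mature sequences come from a RefSeq table on GRCm38.p6, which held all 9 strands and 367 of the tested miRNAs; host genes come from GENCODE on the same build. Members, lists, tests and the rule for named miRNAs were chosen with earlier results of these data known. The rule names the 9 strands, other let-7 family arms, guides, cluster mates, miR-132-3p and miR-212-3p, the 5 most similar miRNAs, and those sharing a run of 7 or more bases with miR-132-3p.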

Additional observations from a re-analysis of the deposited data

Results flagged for a closer look

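In 27 checks of whether 1 library stood away from its own group (9 strands in 3 groups of 8), 4 values stood out, all in AM132 library 1 and all as the highest of the group. Chance flags about 1 in 20 groups when values are normally distributed. The checks are not independent, since the strands come from the same libraries, so the 4 flags are not separate events. let-7a-1-3p stood at 26.6 CPM in that library and at most 12.7 CPM in the other AM132 libraries, and let-7c-2-3p, with the same sequence and nearly the same counts, had the same values. let-7e-3p stood at 11.3 CPM there and at most 7.66 CPM in the others. let-7f-2-3p stood at 3.02 CPM there and at most 1.36 CPM in the others. Library 1 remained far under the AM608 range for let-7a-1-3p, whose lowest AM608 library held 159 CPM, and lay within the AM608 range for let-7e-3p.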

How the results depend on the processing

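In AM132 against AM608, 7 of the 9 strands stayed lower under every scaling, tool, sample set and left-out library tried, except that at a mean of at least 10 CPM only 5 of the strands were tested, and all 5 were lower. The median log2 fold change of the strands was −1.34 over AM608 and −1.49 over RCD with the identical let-7a-1 and let-7c-2 strands as 1, against −1.89 and −1.98 as reported. With each library left out in turn it ran from −2.03 to −1.81 (over AM608). Library totals as the scaling moved the median of all miRNAs from 0.05 to −0.21 (8 higher and 83 lower), let-7d-3p to −1.03, and the calls to 91 for all miRNAs (52 as reported), 3 guides, 1 strand in AM608 against RCD and 4 miRNAs with runs of 7 or more bases. With only the 2 groups compared, 87 miRNAs and 2 guides were called. Guides called numbered 0 without a filter, 2 at a mean of at least 10 CPM, and 2 without RCD library 3 and AM132 library 8, a set chosen after seeing the data. With each library left out, strands called in AM608 against RCD ran from 0 to 1, guides from 0 to 1, cluster mates from 1 to 2, and let-7f-2-3p in AM608 over RCD from −0.18 to 0.03, turning positive without RCD library 4 (0.026) or 8 (0.014). Library numbers did not pair the samples (correlations −0.42 to 0.40 over 24 pairs; 5 of 24 libraries correlated best with their own number); with the replicate block 7 strands were lower in AM132 against AM608 and 0 were called in AM608 against RCD, with 47 and 109 calls over all miRNAs. The causes were not tested. Low counts limit both let-7f passengers most, with 0 to 18 reads per AM132 library.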
